A study of Mus musculus with 8 samples.

Results

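Interferon stimulated genes are the genes that cells switch on when interferons, the signal proteins of antiviral defence, bind their receptors. A list of 38 such mouse genes was followed across 8 RNA sequencing libraries of splenic germinal centre B cells. The list covers the interferon signalling factors, the antiviral effectors and sensors, and the genes of the Mndal and Ifi203 family. Members were found by matching Ensembl gene identifiers, without their version, to the symbols on the list. All 38 were present among the 55421 genes of the count table. Of these, 33 passed the filter on low counts and were tested, as were 12997 genes in all.

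The cells came from C57BL/6 mice aged 8 to 10 weeks, at day 10 after an immunization, and were enriched with magnetic beads that bind peanut agglutinin (PNA), a lectin that marks germinal centre B cells. Libraries were made from total RNA after removal of ribosomal RNA. The 4 groups, with 2 libraries each, were Smarca4+/- CC, Smarca4+/+ CC, Smarca4+/- CB and Smarca4+/+ CB. CC and CB are the labels' names for the cell fractions and are read here as centrocytes, the light zone cells, and centroblasts, the dividing dark zone cells. Smarca4+/- mice carried 1 intact copy of Smarca4, the gene of a motor subunit of the SWI/SNF chromatin remodelling complexes, and Smarca4+/+ mice carried both. The sources used here do not say which cells carried the deletion or whether a Cre driver was used. They also do not say whether libraries of a group came from separate mice or pools, so each p-value measures only the spread between these libraries, which may be technical.

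Type I interferons bind a receptor made of Ifnar1 and Ifnar2, whose kinases Jak1 and Tyk2 phosphorylate Stat2. Stat2 and Irf9 act in the complex ISGF3, which binds the interferon stimulated response element (ISRE) in promoters. The response to interferon gamma runs through another promoter element, named GAS. In mature B cells the type I pathway is known to heighten responses to nucleic acids, and many of its target genes keep a low, tonic level without infection.

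The total count was 526353 to 837558 in the 4 CC libraries and 18357578 to 24341805 in the 4 CB libraries, so a given level was measured with far fewer reads in CC. Levels are given in CPM, counts scaled to a common library total with TMM factors, which correct for differences in composition. In CC 1 count equals 1.19 to 1.79 CPM and in CB 0.0467 to 0.0527 CPM. Counts of 1 to 20 were even in 84.1% to 92.0% of genes in the CC libraries and in 75.1% to 81.1% in the CB libraries. Whether both mates of a read pair were counted is not stated, so low values may rest on fewer fragments than counts. Replicates correlated across genes at r = 0.823 in Smarca4+/- CC, 0.797 in Smarca4+/+ CC, 0.987 in Smarca4+/- CB and 0.980 in Smarca4+/+ CB (Pearson, log2(CPM + 1), where genes are not independent replicates). Replicate 2 of Smarca4+/- CC lay nearest to the CB profile, at r = 0.896 against 0.809 to 0.818 in the other CC libraries. Smarca4 itself stood at 244 and 311 CPM in Smarca4+/- CC, 322 and 316 in Smarca4+/+ CC, 734 and 702 in Smarca4+/- CB, and 897 and 1002 in Smarca4+/+ CB. It was thus lower in Smarca4+/- libraries of either fraction, as labelled, without passing the edgeR test (log2 fold change -0.20, adjusted p = 0.607 in CC, and -0.40, adjusted p = 1 in CB). The 4 dark zone markers fell in CC against CB in both genotypes, and of 5 light zone markers 4 rose in Smarca4+/- and 3 in Smarca4+/+ cells (edgeR adjusted p under 0.05). The B cell markers summed to 2720 and 3659 CPM in Smarca4+/- CC, 3302 and 3193 in Smarca4+/+ CC, 3713 and 4179 in Smarca4+/- CB and 4329 and 4019 in Smarca4+/+ CB.

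The promoters of the members were searched for the ISRE and the GAS element. The list was chosen as interferon stimulated genes, so a frequent ISRE follows from that choice and is no independent result. Windows of 250 bases before to 50 bases after a start site were taken from RefSeq (build GRCm38.p6) for the 26 members it lists, in 32 windows. The ISRE core, searched as GAAANNGAAA on both strands, stood in 15 of the 26 members (57.7%) and in 3.99% of 27025 genes with such windows. The GAS element, searched as TTCNNNGAA, which reads alike on both strands, stood in 7 of 26 members (26.9%) and in 9.55% of all genes. A GAS match overlapped an ISRE match only in Bst2. Shown here are 5 members that passed a test below and had such a window with a match, and Isg15, whose 3 matches overlap. Each is written 5′ to 3′ along its gene with the ISRE core in capitals. They lie at chr1:173880138-173880437 (Mndal, minus strand), chr1:173942443-173942742 (Ifi203, minus), chr1:173599223-173599522 (Ifi213, minus), chr10:128270248-128270547 (Stat2, plus), chr8:71537423-71537722 (Bst2, minus) and chr4:156200769-156201068 (Isg15, minus).
Mndal: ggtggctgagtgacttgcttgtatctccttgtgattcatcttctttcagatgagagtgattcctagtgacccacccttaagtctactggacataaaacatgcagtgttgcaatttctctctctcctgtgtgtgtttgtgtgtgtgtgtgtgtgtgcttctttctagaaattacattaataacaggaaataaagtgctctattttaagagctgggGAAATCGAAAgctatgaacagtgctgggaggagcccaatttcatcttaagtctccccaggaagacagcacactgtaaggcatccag
Ifi203: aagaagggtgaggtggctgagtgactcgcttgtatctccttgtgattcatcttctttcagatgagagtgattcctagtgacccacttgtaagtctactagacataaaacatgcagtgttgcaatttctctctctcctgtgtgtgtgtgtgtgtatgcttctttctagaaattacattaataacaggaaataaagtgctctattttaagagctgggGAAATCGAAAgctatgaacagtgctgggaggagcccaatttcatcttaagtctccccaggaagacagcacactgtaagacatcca
Ifi213: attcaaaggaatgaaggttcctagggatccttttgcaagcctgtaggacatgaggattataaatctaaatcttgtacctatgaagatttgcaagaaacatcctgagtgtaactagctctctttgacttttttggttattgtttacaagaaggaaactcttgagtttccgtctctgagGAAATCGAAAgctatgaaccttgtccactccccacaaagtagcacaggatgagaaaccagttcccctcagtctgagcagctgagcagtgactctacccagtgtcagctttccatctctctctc
Stat2: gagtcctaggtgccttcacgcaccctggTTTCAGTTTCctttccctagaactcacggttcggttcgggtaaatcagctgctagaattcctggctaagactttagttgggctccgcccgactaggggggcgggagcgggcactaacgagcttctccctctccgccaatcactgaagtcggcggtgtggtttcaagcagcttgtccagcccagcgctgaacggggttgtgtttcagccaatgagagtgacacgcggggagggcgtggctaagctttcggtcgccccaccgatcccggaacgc
Bst2: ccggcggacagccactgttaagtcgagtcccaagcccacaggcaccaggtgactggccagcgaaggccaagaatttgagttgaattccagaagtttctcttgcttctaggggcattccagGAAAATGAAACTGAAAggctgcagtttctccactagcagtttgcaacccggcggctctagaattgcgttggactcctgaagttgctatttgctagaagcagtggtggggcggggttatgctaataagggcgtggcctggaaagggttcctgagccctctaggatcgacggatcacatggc
Isg15: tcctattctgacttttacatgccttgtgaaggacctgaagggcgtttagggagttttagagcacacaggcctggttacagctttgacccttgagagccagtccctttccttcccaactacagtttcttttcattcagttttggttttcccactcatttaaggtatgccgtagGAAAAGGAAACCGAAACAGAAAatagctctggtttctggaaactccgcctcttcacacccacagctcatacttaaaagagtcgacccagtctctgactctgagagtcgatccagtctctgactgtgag

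Mndal, Ifi203 and Ifi213, all on chromosome 1, carried the same 10 letters, GAAATCGAAA, in the direction of the gene. In the windows shown they began 36, 35 and 73 bases upstream of the start site used. Mndal and Ifi203 also had a window at another start site. That of Mndal (chr1:173879909-173880208) held a different match, on the other strand and 54 bases upstream. That of Ifi203 (chr1:173942623-173942922) held 0 matches. In Stat2 the match lay on the other strand, 222 bases upstream, and in Bst2 matches began 130 and 124 bases upstream. In Isg15 they began 78, 72 and 66 bases upstream. A match describes these letters and is no measure of binding.

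Levels per kilobase of transcript, averaged over the 8 libraries, differed widely between members. Ly6e, a lipid-anchored surface protein, had the highest level (158 CPM per kb), followed by Samhd1, an enzyme that degrades deoxynucleotides (69.6), and Ly6a, the surface antigen Sca-1 (51.8), which stood above Samhd1 in Smarca4+/+ CC. Stat2 stood at 18.9 and Parp14, an ADP-ribosyltransferase, at 16.7 CPM per kb. At the low end, Ifi44 stood at 0.111 and Mx2 at 0.177 CPM per kb. Ifit1, Mx2, Rsad2, Ifi44 and Rtp4, most of them antiviral effectors with strong induction by interferon, did not pass the filter on low counts. Their highest count in a CC library was 8 and in a CB library 15. A count of 0 was taken to allow as many as 3 counts per group of 2 libraries, equal to 1.88 CPM in Smarca4+/- CC, 2.56 in Smarca4+/+ CC, 0.0754 in Smarca4+/- CB and 0.0730 in Smarca4+/+ CB. Such limits cover only counting error, and only in the group at 0. A fold given against a limit takes the counts of the other group as exact. If both mates of a read pair were counted, the limits would be higher and such folds smaller.

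**Figure D1:**
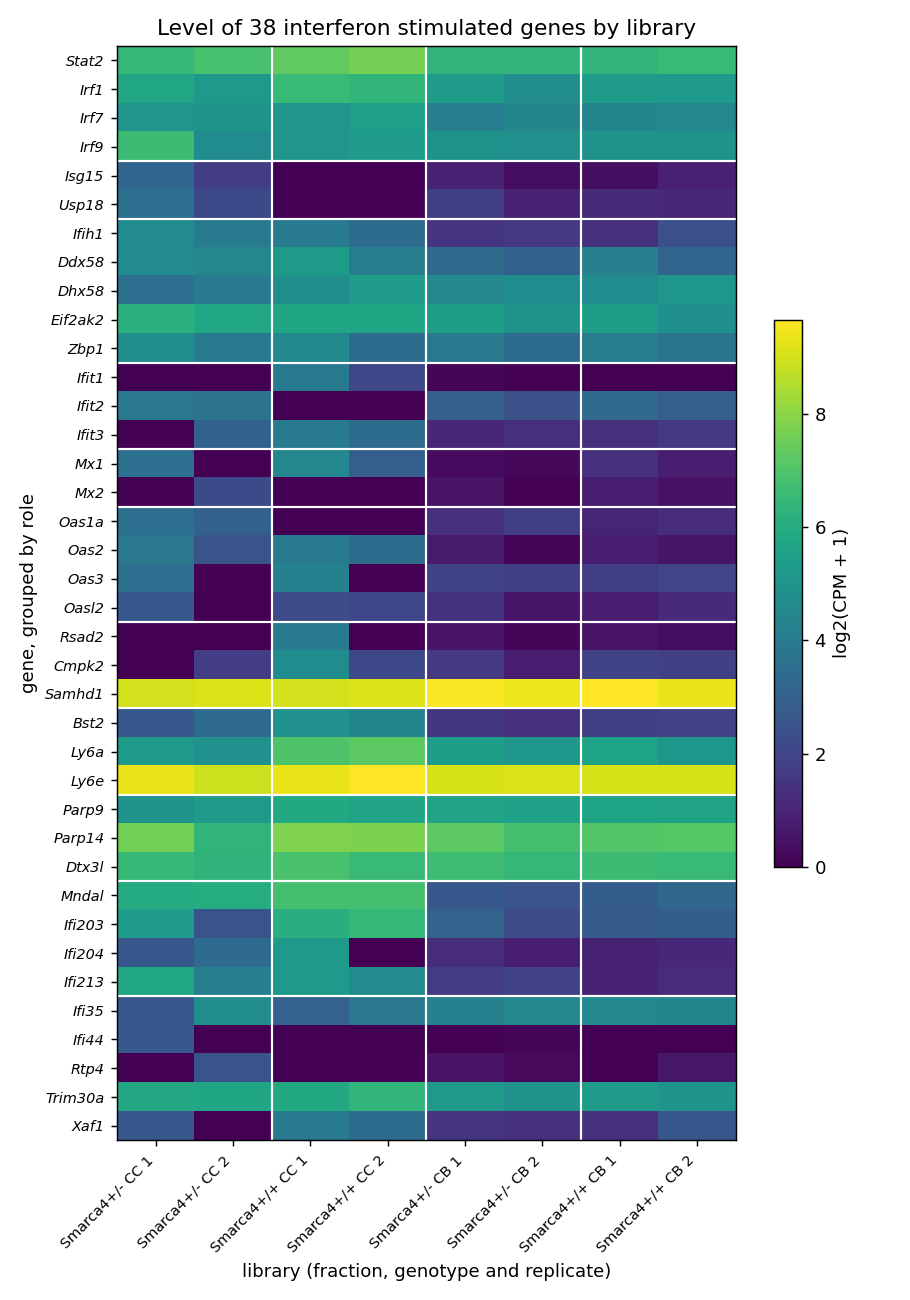
Level of the 38 genes (rows, grouped by role) in the 8 libraries (columns), as log2(CPM + 1) in colour. Samhd1 and Ly6e are bright in every library, the Ifit, Mx and Oas genes are dark in CB, and the PYHIN genes Mndal and Ifi213 are brighter in every CC library, Ifi203 in 3 of the 4.

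The summed level of all 38 genes was 2262 and 1822 CPM in Smarca4+/- CC, 2636 and 2753 in Smarca4+/+ CC, 2010 and 1833 in Smarca4+/- CB and 2057 and 1870 in Smarca4+/+ CB. Samhd1 and Ly6e held 51.5% and 57.5% of it in Smarca4+/- CC, 44.1% and 49.9% in Smarca4+/+ CC, 65.8% and 67.9% in Smarca4+/- CB and 66.1% and 63.9% in Smarca4+/+ CB. Without them the sums were 1096 and 774 CPM in Smarca4+/- CC, 1474 and 1378 in Smarca4+/+ CC, 688 and 589 in Smarca4+/- CB and 698 and 674 in Smarca4+/+ CB. On these sums every CC library stood above every CB library, and the Smarca4+/+ CC libraries stood highest.

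The comparison of CC with CB asks how the interferon genes differ between the fractions within a genotype. In Smarca4+/- cells Mndal and Ifi213 were higher in CC, and in Smarca4+/+ cells Mndal, Ifi213, Ifi203, Stat2, Ly6a and Bst2 were higher in CC. By edgeR no member was called lower in CC. Ifit2 had 0 counts in both Smarca4+/+ CC libraries and 323 in Smarca4+/+ CB, where its level was 3.07-fold the CC limit (edgeR adjusted p = 0.0646). It was called lower in CC by DESeq2 (adjusted p = 0.0219) and by edgeR with no low count filter (adjusted p = 0.0360). DESeq2 called 9 members higher and 0 lower in Smarca4+/- cells, against 8.07% and 4.34% of all genes, and 15 higher and 1 lower in Smarca4+/+ cells, against 10.9% and 7.93%. A gene is called at an adjusted p under 0.05 (edgeR quasi-likelihood test, Benjamini-Hochberg over 12997 genes). In Smarca4+/- cells 2 of 33 tested members (6.06%) were called higher and 0 lower, against 2.17% of all genes higher and 1.50% lower. In Smarca4+/+ cells 6 of 33 (18.2%) were called higher and 0 lower, against 3.72% of all genes higher and 3.76% lower. The log2 fold change was positive in 26 of 33 members in Smarca4+/- cells and in 27 of 33 in Smarca4+/+ cells, against 46.0% and 42.0% of all genes in the same order. Its median over members was 0.92 in Smarca4+/- cells and 1.05 in Smarca4+/+ cells, against -0.08 and -0.19 over all genes. Setting members with no count in a group to their bound left both medians as they were. The Isg15, Mx1, Oas2 and Ifi204 genes entered the test only through their CC counts, which favours higher CC values among them. Over the other 29, positive values numbered 22 in Smarca4+/- and 24 in Smarca4+/+ cells, with medians of 0.78 and 1.01. The groups did not overlap, CC being higher, in 16 members in Smarca4+/- cells (20.2% of all genes) and in 21 in Smarca4+/+ cells (18.2% of all genes). They did not overlap, CC being lower, in 3 and 6 members (33.2% and 38.5% of all genes). The median of all genes in Smarca4+/+ cells was -0.07 under RLE scaling and -0.0040 with library totals alone, and the members named as called kept positive values under both.

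**Figure D2:**
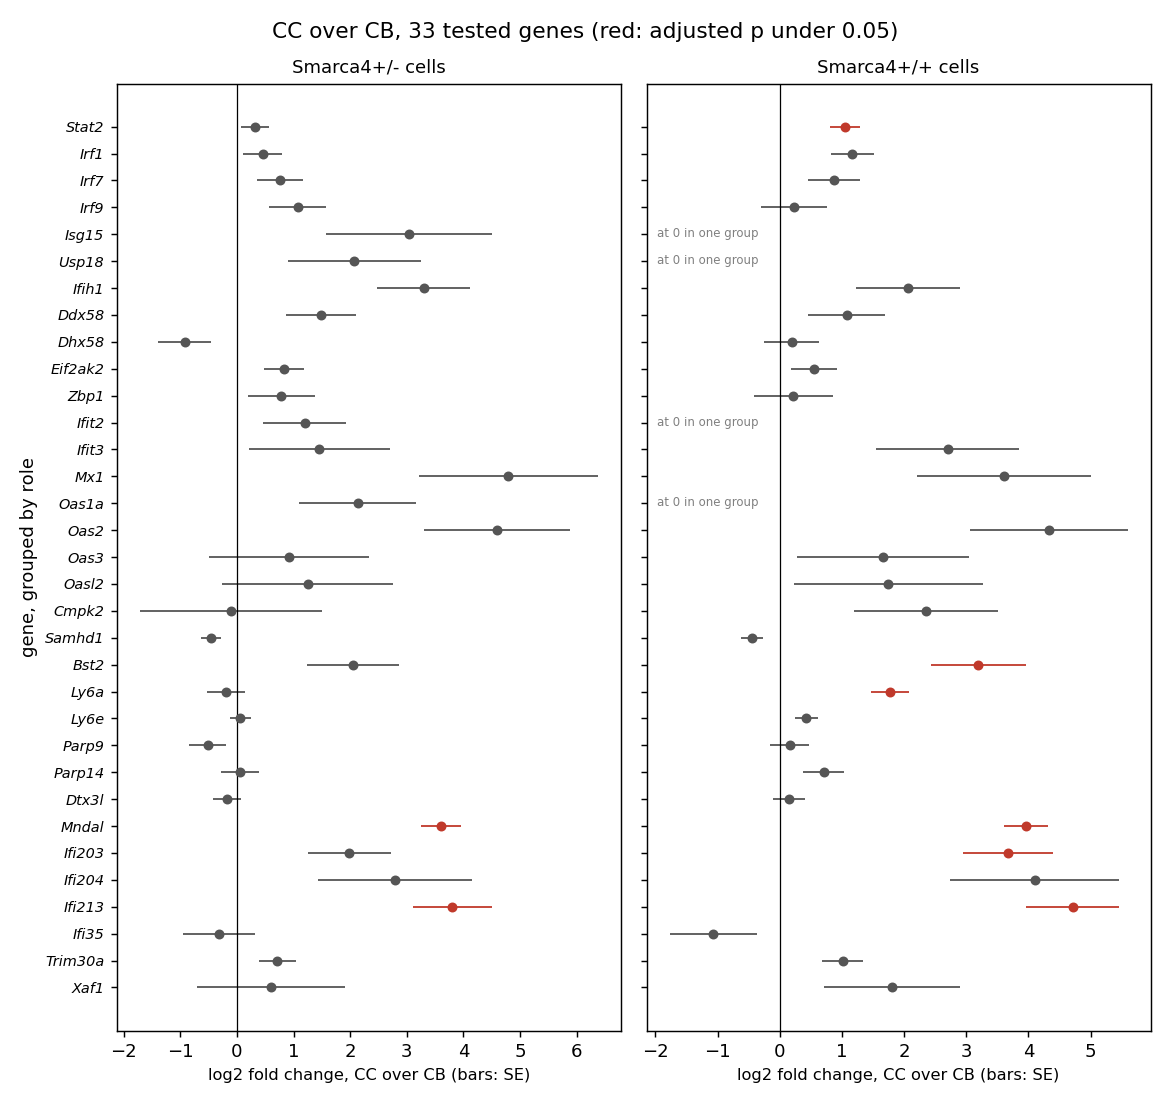
Log2 fold change of CC over CB (horizontal axis) for the 33 tested genes, in Smarca4+/- cells (left) and Smarca4+/+ cells (right). Points are edgeR estimates, bars 1 SE, red marks an adjusted p under 0.05, and genes at 0 counts in a group have no point. The called genes, 2 on the left and 6 on the right, all lie above 0.

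The PYHIN genes showed the largest differences between the fractions among the called members. They encode proteins with a pyrin domain and a DNA-binding HIN domain, and they lie in a cluster on chromosome 1. Mndal (ENSMUSG00000090272.9, mm10 chromosome 1, 173849126 to 173880881), a nuclear PYHIN protein, stood at 60.1 and 62.8 CPM in Smarca4+/- CC, 113 and 113 in Smarca4+/+ CC, 5.27 and 4.85 in Smarca4+/- CB and 6.30 and 8.17 in Smarca4+/+ CB. Every CC library lay above every CB library, with close replicates. The log2 fold change of CC over CB was 3.60 (SE 0.35, edgeR adjusted p = 0.0026) in Smarca4+/- cells and 3.96 (SE 0.35, adjusted p = 0.00076) in Smarca4+/+ cells.

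Ifi213 (chromosome 1, 173566283 to 173599274) stood at 53.4 and 16.6 CPM in Smarca4+/- CC, 35.7 and 24.5 in Smarca4+/+ CC, 2.21 and 2.74 in Smarca4+/- CB and 0.914 and 1.35 in Smarca4+/+ CB. Again all CC libraries were above all CB libraries, though the Smarca4+/- CC replicates lay far apart. Its log2 fold change of CC over CB was 3.81 (SE 0.70, edgeR adjusted p = 0.0146) in Smarca4+/- cells and 4.71 (SE 0.75, adjusted p = 0.0045) in Smarca4+/+ cells. Ifi203 (chromosome 1, 173920407 to 173942672) stood at 40.1 and 4.74 CPM in Smarca4+/- CC, 66.1 and 86.6 in Smarca4+/+ CC, 7.38 and 3.75 in Smarca4+/- CB and 5.79 and 6.25 in Smarca4+/+ CB. The Smarca4+/+ fractions did not overlap, with a log2 fold change of 3.66 (SE 0.72, edgeR adjusted p = 0.0131), while replicate 2 of Smarca4+/- CC lay within the CB range. Ifi204, the remaining PYHIN member, reached 35.7 CPM in 1 Smarca4+/+ CC library and had 0 counts in the other. Summed, the 4 PYHIN members reached 159 and 93.7 CPM in Smarca4+/- CC, 250 and 224 in Smarca4+/+ CC, 16.2 and 12.1 in Smarca4+/- CB and 13.9 and 16.9 in Smarca4+/+ CB. These genes share sequence: of the 50-base stretches in their transcripts, 19.6% in Mndal, 12.4% in Ifi203, 20% in Ifi204 and 15.6% in Ifi213 occur in other genes, so reads may have moved among relatives.

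**Figure D3:**
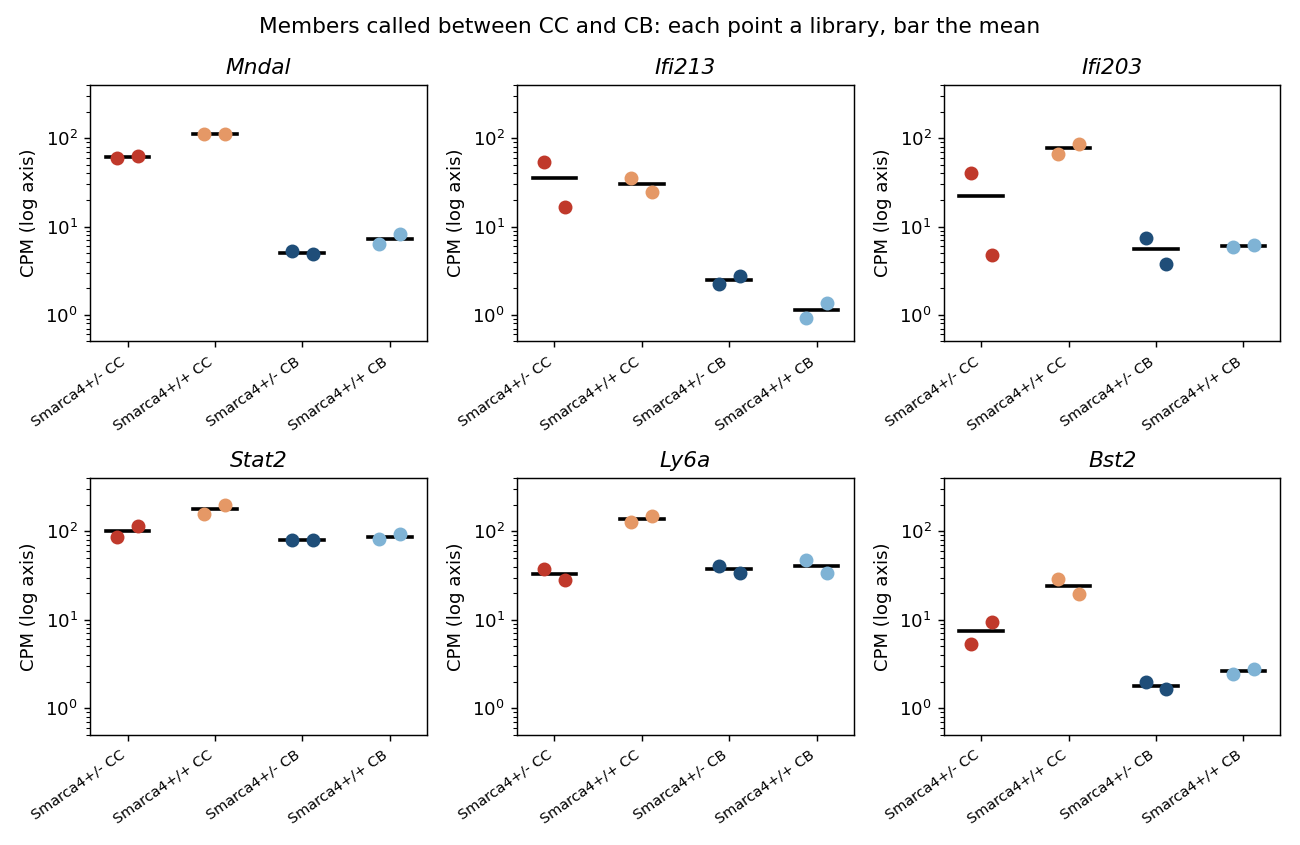
Level in CPM (log axis) of the 6 genes called between CC and CB in at least 1 genotype, by group. Each point is a library and each bar the mean of 2. Mndal and Ifi213 are higher in all CC libraries, while Ly6a is high only in Smarca4+/+ CC, at 129 and 149 CPM.

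Among the signalling factors, Stat2 (chromosome 10, 128270559 to 128292849) stood at 86.8 and 115 CPM in Smarca4+/- CC, 159 and 199 in Smarca4+/+ CC, 80.3 and 80.8 in Smarca4+/- CB and 81.1 and 92.4 in Smarca4+/+ CB. In Smarca4+/+ cells the fractions did not overlap and the log2 fold change of CC over CB was 1.05 (SE 0.25, edgeR adjusted p = 0.0267). Irf1, Irf7 and Irf9, the other signalling members, had positive estimates in both genotypes and none was called by edgeR. DESeq2 called Irf7 higher in CC in both genotypes and Irf1 in Smarca4+/+ cells. The sensors of viral RNA and Z-form nucleic acid (Ifih1, Ddx58, Dhx58, Eif2ak2 and Zbp1) had positive estimates in 4 of 5 members in Smarca4+/- cells and in 5 of 5 in Smarca4+/+ cells. None was called by edgeR, and DESeq2 called Ifih1 higher in CC in both genotypes. Ifih1, which senses long double-stranded RNA, stood at 24.0 and 14.2 CPM in Smarca4+/- CC, 14.3 and 9.81 in Smarca4+/+ CC, 1.85 and 2.02 in Smarca4+/- CB and 1.52 and 4.2 in Smarca4+/+ CB. CC was above CB in every library, and in Smarca4+/- cells the log2 fold change of 3.30 missed the threshold (SE 0.82, edgeR adjusted p = 0.0520). Eif2ak2, the kinase that halts translation on sensing double-stranded RNA, had the highest level per kilobase of the sensors when averaged over all libraries, though Dhx58 had the higher mean in Smarca4+/+ CC (10.1 CPM per kilobase, against 10.0) and in both CB groups. Eif2ak2 had 72.1 and 54.5 CPM in Smarca4+/- CC, 50 and 52.3 in Smarca4+/+ CC, 41.0 and 29.9 in Smarca4+/- CB and 42.2 and 27.6 in Smarca4+/+ CB.

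Of the surface proteins, Ly6a (chromosome 15, 74994877 to 74998031) stood at 37.4 and 28.5 CPM in Smarca4+/- CC, 129 and 149 in Smarca4+/+ CC, 40.8 and 34.2 in Smarca4+/- CB and 48.1 and 33.6 in Smarca4+/+ CB. Only the Smarca4+/+ CC libraries stood above the rest. There the log2 fold change of CC over CB was 1.77 (SE 0.31, edgeR adjusted p = 0.0068). Bst2, or tetherin, which holds budding virus at the cell surface, stood at 5.34 and 9.48 CPM in Smarca4+/- CC, 28.6 and 19.6 in Smarca4+/+ CC, 1.95 and 1.63 in Smarca4+/- CB and 2.44 and 2.80 in Smarca4+/+ CB. Its CC libraries lay above its CB libraries in both genotypes, and the log2 fold change in Smarca4+/+ cells was 3.19 (SE 0.77, edgeR adjusted p = 0.0300). Those CC values rest on 16 and 12 counts in Smarca4+/+ and 4 and 8 counts in Smarca4+/- cells. Ly6e was at 650 and 493 CPM in Smarca4+/- CC, 647 and 804 in Smarca4+/+ CC, 546 and 553 in Smarca4+/- CB and 546 and 536 in Smarca4+/+ CB, with 1 Smarca4+/- CC library below the CB libraries and the other above them. Reads of Ly6a may be shared with Ly6c1, Ly6i and Ly6c2, which hold 19.0% of its 50-base stretches together with 1 clone-named gene.

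The Isg15, Ifit, Mx and Oas families, with roles that include tagging proteins, binding viral RNA and activating RNase L, gave no call by edgeR. Between the fractions DESeq2 called Oas2 and Mx1 higher in CC in both genotypes and Oas1a higher in Smarca4+/- cells. In Smarca4+/+ cells it called Ifit3 higher and Ifit2 lower. Isg15, a ubiquitin-like protein, stood at 8.01 and 2.37 CPM in Smarca4+/- CC and at 0 in both Smarca4+/+ CC libraries, against 0.949 and 0.288 CPM in Smarca4+/- CB and 0.305 and 0.840 in Smarca4+/+ CB. Ifit3 stood at 0 and 7.11 CPM in Smarca4+/- CC, 14.3 and 9.81 in Smarca4+/+ CC, 1.16 and 1.49 in Smarca4+/- CB and 1.52 and 2.15 in Smarca4+/+ CB, and it shares 51.2% of its 50-base stretches with Ifit3b. Mx1 stood at 10.7 and 0 CPM in Smarca4+/- CC, 21.4 and 6.54 in Smarca4+/+ CC, 0.211 and 0.144 in Smarca4+/- CB and 1.52 and 0.747 in Smarca4+/+ CB. Isg15, Ifit3 and Mx1 stood at 0 in some CC libraries and reached 8.01, 14.3 and 21.4 CPM in others, on 6, 8 and 12 counts. Oas2 stood at 13.4 and 4.74 CPM in Smarca4+/- CC and 14.3 and 9.81 in Smarca4+/+ CC, on 10, 4, 8 and 6 counts. In CB it stood at 0.633 and 0.0961 CPM in Smarca4+/- and 0.711 and 0.467 in Smarca4+/+ libraries. For CC over CB its edgeR adjusted p was 0.0826 in Smarca4+/- and 0.0632 in Smarca4+/+ cells. Samhd1 had 515 and 555 CPM in Smarca4+/- CC, 515 and 571 in Smarca4+/+ CC, 776 and 691 in Smarca4+/- CB and 813 and 660 in Smarca4+/+ CB, lower in every CC library and not called. Parp14 had 194 and 79.4 CPM in Smarca4+/- CC, 223 and 217 in Smarca4+/+ CC, 150 and 113 in Smarca4+/- CB and 131 and 139 in Smarca4+/+ CB. Trim30a, a restraint on Toll-like receptor signalling, had 56.1 and 52.2 CPM in Smarca4+/- CC, 57.2 and 81.7 in Smarca4+/+ CC, 35.5 and 30.4 in Smarca4+/- CB and 37.6 and 31.5 in Smarca4+/+ CB. Its fractions did not overlap, and it was called higher in CC in both genotypes by DESeq2 and in neither by edgeR.

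Markers of other cells moved with the fractions. The 15 macrophage markers summed to 4105 and 1782 CPM in Smarca4+/- CC, 3429 and 3304 in Smarca4+/+ CC, 122 and 79.3 in Smarca4+/- CB and 55.0 and 283 in Smarca4+/+ CB, with 13 of 15 called higher in CC in Smarca4+/- and 11 of 15 in Smarca4+/+ cells. Timd4 was at 0 in 3 CC libraries and Fcgr1 in both Smarca4+/- CC libraries, while the complement genes C1qa, C1qb and C1qc were present in all. The 13 T cell markers summed to 369 and 242 CPM in Smarca4+/- CC, 652 and 755 in Smarca4+/+ CC, 115 and 112 in Smarca4+/- CB and 138 and 135 in Smarca4+/+ CB, with 7 and 10 called higher in CC in the same order of genotypes. Most of the CB sum was Lck, at 108 to 132 CPM there. The 8 erythroid markers summed to 427 and 111 CPM in Smarca4+/- CC, 590 and 719 in Smarca4+/+ CC, 7.01 and 5.43 in Smarca4+/- CB and 10.4 and 8.87 in Smarca4+/+ CB. Of 4 plasmacytoid dendritic cell markers, Klk1 and Cox6a2 were at 0 in every library, and the sum did not exceed 21.4 CPM. Macrophages and T cells also express many interferon stimulated genes, among them PYHIN genes and Ly6a. The part of these cells in the differences between CC and CB was not tested, and in bulk RNA fewer cells of a type and less RNA per cell cannot be told apart.

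**Figure D4:**
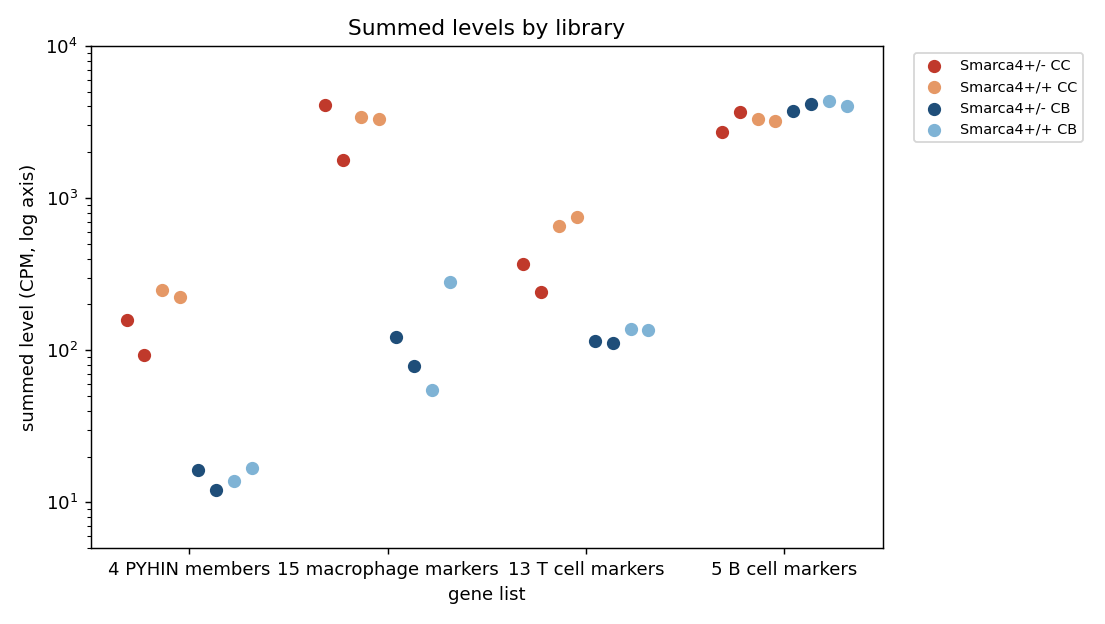
Summed level in CPM (log axis) of the 4 PYHIN members and of the macrophage, T cell and B cell markers, with 1 point per library coloured by group. The PYHIN sum and the macrophage sum are higher in all CC libraries, and both are lower in replicate 2 than in replicate 1 of Smarca4+/- CC.

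Calls between the fractions depended on single libraries. The share of all genes called with a library left out is not given here. The counts below therefore do not set the members apart from other genes. In Smarca4+/- cells 0 members were called without Smarca4+/- CB replicate 1 or without replicate 2, 1 (Mndal) without Smarca4+/- CC replicate 1 and 7 without its replicate 2. In Smarca4+/+ cells 2 (Mndal and Ly6a) were called without Smarca4+/+ CB replicate 1 and 1 (Mndal) without replicate 2. Mndal in Smarca4+/+ cells was called under all 17 alternatives, with an adjusted p up to 0.0192, while Bst2 was called under 8 of 16 and Stat2 under 11 of 17.

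The comparison of Smarca4+/- with Smarca4+/+ cells asks what loss of 1 Smarca4 copy does to the interferon genes in each fraction. In CC the estimates leaned downward. Of the members called higher in CC in Smarca4+/+ cells, Ly6a, Stat2, Mndal, Ifi203 and Bst2 stood lower in both Smarca4+/- than in either Smarca4+/+ CC library. Ifi213 overlapped, and none of them passed the test. The calls in Smarca4+/+ cells used the same Smarca4+/+ CC libraries, which favours lower Smarca4+/- CC values among these members. No member was called in CC (0 of 33), where 0% of all genes were called higher and 0.0231% lower. At an unadjusted p under 0.05 there were 3 higher and 7 lower members of 33, against 8.80% of all genes higher and 6.43% lower. DESeq2 called 2 higher (Ifit2 and Oas1a) and 3 lower (Ly6a, Stat2 and Mndal) of 31 members with an adjusted p, against 4.14% of all genes higher and 3.39% lower. The log2 fold change was positive in 10 of 33 members (30.3%), against 55.0% of all genes, with a median of -0.40 against 0.03 over all genes. The groups did not overlap in 5 members with Smarca4+/- higher (18.1% of all genes) and in 15 with Smarca4+/- lower (14.4% of all genes).

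Ly6a had the smallest p in CC, with a log2 fold change of -2.08 for Smarca4+/- over Smarca4+/+ (SE 0.34, edgeR adjusted p = 0.0948). It was called under 4 of 17 alternatives, with adjusted p-values over all of them between 2.43e-06 and 0.770. The T cell marker sum, given above, was likewise lower in both Smarca4+/- CC libraries than in either Smarca4+/+ CC library, at 369 and 242 against 652 and 755 CPM, and its part was not tested. Stat2 had a log2 fold change of -0.83 in CC (SE 0.26, edgeR adjusted p = 0.195). Other markers also differed between the CC groups. The 4 dark zone markers summed to 2046 and 2966 CPM in Smarca4+/- CC and to 1390 and 1378 in Smarca4+/+ CC, with Mki67, a marker of dividing cells, at a log2 fold change of 1.01 (SE 0.19, edgeR adjusted p = 0.100). The erythroid markers summed to 427 and 111 CPM in Smarca4+/- CC and to 590 and 719 in Smarca4+/+ CC. None of these markers was called, and their part in the lower values was not tested.

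Ifit2, an RNA-binding effector, went the other way. It stood at 13.4 and 11.9 CPM in Smarca4+/- CC (10 and 10 counts) and at 0 in both Smarca4+/+ CC libraries, against 6.64 and 4.32 CPM in Smarca4+/- CB and 9.19 and 6.63 in Smarca4+/+ CB. Its level in Smarca4+/- CC was 4.90-fold the limit of 3 counts over the Smarca4+/+ CC group (edgeR adjusted p = 0.154). Oas1a, which makes the activator of RNase L, stood at 10.7 and 7.11 CPM in Smarca4+/- CC, 3.43-fold the same limit, and at 0 in Smarca4+/+ CC. In CB it stood at 1.53 and 2.50 CPM in Smarca4+/- and 1.02 and 1.35 in Smarca4+/+ libraries. It shares 57.6% of its 50-base stretches with Oas1g and Oas1b. Isg15 and Usp18, which removes Isg15 from proteins, were also at 0 in both Smarca4+/+ CC libraries. Their levels in Smarca4+/- CC were 1.96-fold and 2.70-fold the limit (edgeR adjusted p = 0.352 and 0.273). Usp18 stood at 10.7 and 3.56 CPM in Smarca4+/- CC, on 8 and 3 counts. In CB it stood at 2.42 and 0.913 CPM in Smarca4+/- and 1.22 and 1.12 in Smarca4+/+ libraries. Ifit2, Oas1a, Isg15 and Usp18 had 8 to 20 counts over both Smarca4+/- CC libraries. The 7 neutrophil markers were also at 0 in both Smarca4+/+ CC libraries and summed to 331 and 40.3 CPM in Smarca4+/- CC, with none called, and their part in these values was not tested. Zeros fell both ways among the members that did not pass the filter. Ifit1 had 0 counts in both Smarca4+/- CC libraries and 8 and 2 in Smarca4+/+ CC, and Rsad2 had 0 against 8 and 0. Mx2, Ifi44 and Rtp4 had 0 counts in both Smarca4+/+ CC libraries and 3, 4 and 4 in 1 Smarca4+/- CC library each.

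**Figure D5:**
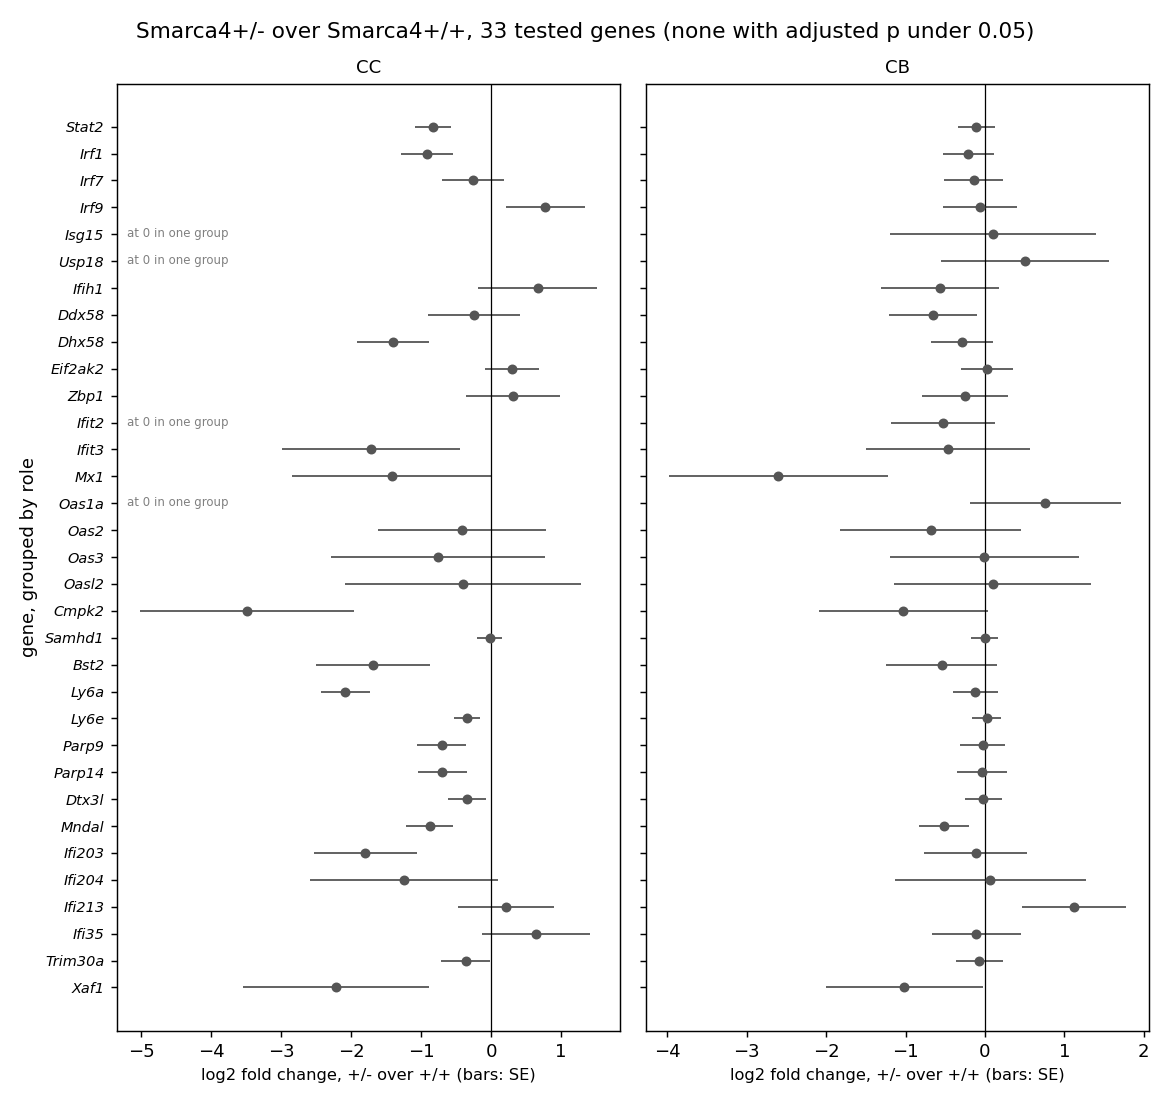
Log2 fold change of Smarca4+/- over Smarca4+/+ (horizontal axis) for the 33 tested genes, in CC (left) and CB (right). Points are edgeR estimates, bars 1 SE, and genes at 0 counts in a group have no point. The CC estimates lie mostly below 0, with a median of -0.40, those in CB have a median of -0.11, and no gene passed an adjusted p of 0.05.

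In CB, where depth was highest, no member was called between the genotypes (0 of 33, with 0% of all genes called in either direction). The spread of each gene was estimated over all 8 libraries. The less alike CC libraries thus enter the CB test, which may miss differences that the CB libraries hold. A fit of the CB groups alone, on fewer libraries, also called 0 members. None reached an unadjusted p of 0.05 (0.646% of all genes did), and DESeq2 called 0 of 33 (0.0231% of all genes). The log2 fold change was positive in 8 of 33 members (24.2%), against 49.3% of all genes, and its median was -0.11, against -0.0044 over all genes. The groups did not overlap in 2 members with Smarca4+/- higher (16.2% of all genes) and in 8 with Smarca4+/- lower (15.8% of all genes). The members with the smallest p were Mx1, Ifi213 and Mndal. Mx1 had a log2 fold change of -2.60 (SE 1.38, edgeR adjusted p = 1) on 4 and 3 counts in Smarca4+/- CB and 30 and 16 in Smarca4+/+ CB. Ifi213 had a log2 fold change of 1.12 (SE 0.66) and Mndal of -0.52 (SE 0.31), each with an edgeR adjusted p of 1. The abundant members differed by little more than their spread or less. Ly6e averaged 549 ± 5.09 CPM in the Smarca4+/- and 541 ± 6.98 CPM in the Smarca4+/+ libraries of CB (SD, n = 2 each), and Samhd1 averaged 734 ± 60.3 CPM in the Smarca4+/- and 737 ± 109 CPM in the Smarca4+/+ libraries.

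Whether the fractions differed more in Smarca4+/- than in Smarca4+/+ cells was tested as an interaction. No member was called (0 of 33, as 0% of all genes), 3 had an unadjusted p under 0.05, against 9.19% of all genes, and DESeq2 called 2 of 30, against 3.16% of all genes. Ly6a had an interaction of -1.96 on the log2 scale (SE 0.45, edgeR adjusted p = 0.419), and over its alternatives the adjusted p lay between 0.00238, from DESeq2, and 1.00. Ifit2 (edgeR adjusted p = 0.419) and Oas1a (edgeR adjusted p = 0.538) followed, with no size given because Smarca4+/+ CC was at 0. The different numbers of called members in the genotypes, 2 and 6, are therefore not shown to be a difference between them.

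The wider pathway was followed on 120 further genes, of which 104 were tested. The 10 interferon genes on this list had 0 counts in every library, which allows up to the limits given above. None of the 11 receptor and kinase genes and none of the 7 tested inhibitors was called between CC and CB in either genotype. Over the list, 7 of 104 (6.73%) were called higher in CC and 0 lower in Smarca4+/- cells, and 14 (13.5%) were called higher and 0 lower in Smarca4+/+ cells. All genes were called higher in 2.17% and lower in 1.50% in Smarca4+/- cells, and higher in 3.72% and lower in 3.76% in Smarca4+/+ cells. Genes of this list that entered the test only through their CC counts were not set apart. Such genes favour higher CC values, so the lack of lower calls is partly set by the filter. Slfn5, a Schlafen family member, had 58.8 and 23.7 CPM in Smarca4+/- CC, 89.3 and 55.6 in Smarca4+/+ CC, 2.06 and 1.25 in Smarca4+/- CB and 0.965 and 2.80 in Smarca4+/+ CB. Its log2 fold change of CC over CB was 4.63 (SE 0.69, edgeR adjusted p = 0.0057) in Smarca4+/- and 5.25 (SE 0.70, adjusted p = 0.0021) in Smarca4+/+ cells.

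Lgals3bp, a secreted galectin-binding protein, Slfn2, Ikbke, a kinase that activates Irf3 and Irf7, and the PYHIN gene Ifi214 were also called higher in CC in both genotypes. Ifi214 had log2 fold changes of 5.30 (SE 1.25) in Smarca4+/- and 5.37 (SE 1.22) in Smarca4+/+ cells (edgeR adjusted p = 0.0413 and 0.0240). Gbp5 and Gbp8, interferon induced GTPases, were called in Smarca4+/- cells. Gbp7 and Tgtp1 of the same class were called in Smarca4+/+ cells, where Tgtp1 had 0 counts in both CB libraries. Of the antigen presentation genes, 0 of 13 were called higher in Smarca4+/- cells (2.17% of all genes) and 3 in Smarca4+/+ cells (3.72% of all genes), and none of the 13 was called in the interaction. H2-K1, a class I heavy chain, had 523 and 433 CPM in Smarca4+/- CC, 645 and 956 in Smarca4+/+ CC, 274 and 302 in Smarca4+/- CB and 301 and 311 in Smarca4+/+ CB, with a log2 fold change of 1.39 (SE 0.21, edgeR adjusted p = 0.0035) in Smarca4+/+ cells. In the same cells B2m, its light chain, rose by 1.44 on the log2 scale (SE 0.26, edgeR adjusted p = 0.0095) and Tapbp, which loads peptides, by 0.99 (SE 0.23, edgeR adjusted p = 0.0286). Between the genotypes none of the 104 was called in either fraction by edgeR. At an unadjusted p under 0.05 there were 7 higher and 16 lower in CC, against 8.80% of all genes higher and 6.43% lower. In CB there were 2 higher and 0 lower, against 0.285% and 0.362%.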

How the data were processed

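RNA was sequenced from 8 libraries. The authors deposited raw read counts per gene, with a length column in bases that was used only for levels per kilobase. The submitters' processing notes name FastQC, STAR, featureCounts, Subread, R 4.2.1 and mm10. The sources used here give neither the strand setting nor the treatment of reads with several hits, so overlapping and antisense genes are uncertain. Of 55421 identifiers, 55154 had a GENCODE M21 symbol.

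The members, gene lists and tests were chosen with earlier results of these data known. The deposited counts went into edgeR 4.0.16 (R 4.3.3): filterByExpr (minimum count 10, minimum total 15), TMM scaling, a quasi-likelihood fit of 4 group means over the 8 libraries, leaving 4 residual degrees of freedom, with 5 contrasts tested on both sides, adjusted by Benjamini-Hochberg at 0.05. The script was tested on simulated data. Each SE is the fold change over the root of F. Alternatives were DESeq2 1.42.0, RLE or total count scaling, no filter, at least 50 counts in 2 libraries, a replicate block, only the groups compared, CB thinned to 657641 counts, and each library left out. Halving the counts, because low counts were mostly even, was added after seeing the data. Replicate numbers were not shown to pair libraries. Fold changes are named for members that passed the test or had 1 of the 3 smallest p in a comparison. Per-library values are given for these, for the highest level per kilobase in each role, for Oas2 and for tested members at 0 in a group. Other pathway genes named were all called, at most 4 per role and comparison, and not every called gene is named.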

Additional observations from a re-analysis of the deposited data

How the results depend on the processing

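Genotype in CB gave 0 called members under all alternatives. For genotype in CC, where edgeR called 0, DESeq2 called 5, no low count filter 2, thinned CB libraries 1 and halved counts 1, and leaving out a library gave 0 each time. For CC against CB in Smarca4+/- cells (2 called), DESeq2 called 9, no filter 6, the stricter filter 1, thinning 1 and halved counts 4, and leaving out a library gave 0 to 7. In Smarca4+/+ cells (6 called), DESeq2 called 16 and no filter 11, each with Ifit2 lower among them, and leaving out a library gave 1 to 9. For the interaction (0 called), DESeq2 called 2. Where this left 1 library in a group, that library was assumed to vary like the other groups. With a replicate block 2 members were called between the fractions in Smarca4+/- cells, 5 in Smarca4+/+ cells and 0 in the genotype comparisons and the interaction. Deviations of libraries with the same number correlated at -0.035 to 0.047 between groups, so the numbers were not shown to pair the libraries. Among the named fold changes no alternative reversed a sign. Counted as pairs of a fold change and an alternative, 17 moved past the threshold, 25 lost it and 244 stayed on the same side. Shares of all genes called under these alternatives are not given here, so the counts do not set the members apart from other genes. The cause of these changes was not tested. Precision is limited by CC depth, where 1 count is 1.19 to 1.79 CPM.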
